A study of Mus musculus with 4 samples.

Results

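The endothelial leukocyte adhesion molecules are the surface proteins by which the vessel wall catches circulating leukocytes, and 6 of their genes, of 32285 in the matrices, are described here: the selectins Sele and Selp, the immunoglobulin-family molecules Vcam1, Icam1 and Icam2, and the chemokine-binding receptor Ackr1. They were found by their gene symbols, and each symbol had a single row, so all 6 were measured. The data were single-nucleus RNA libraries of aortic tissue from mice with a CA1 knock-in on the ApoE-/- background, a genotype that all 4 groups shared. CA1 is carbonic anhydrase 1, and mice that lack ApoE are used as a model of atherosclerosis. The groups were mice given high-fat food and methoxazolamide (MTZ, which the series title calls an inhibitor of CA1) from the same time (MTZ-simultaneous), mice given high-fat food and then MTZ once atherosclerosis was established (MTZ-after), mice given high-fat food alone (high-fat) and mice without treatment (untreated). Each group had 1 library, and the age of the mice, the number of animals in a library, the promoter of the knock-in and the doses were not given in the sources used here. No difference could therefore be set against variation between animals, no test was run, and every interval is an exact 95% interval that covers counting error only. The study addressed the part of CA1 in atherosclerosis and the effect of MTZ on it.

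Leukocytes leave the blood in steps. E-selectin (Sele) and P-selectin (Selp) on endothelium bind sugar-decorated ligands on leukocytes and let them roll. VCAM-1 (Vcam1) binds the integrin of monocytes and lymphocytes that contains the alpha-4 chain, and ICAM-1 (Icam1) and ICAM-2 (Icam2) bind the beta-2 integrins, which stops the cell on the wall. ACKR1 (Ackr1) carries chemokines across venular endothelium without signalling. Sele, Vcam1 and Icam1 are classical targets of NF-kappaB in endothelium exposed to inflammatory cytokines, Icam2 is made without such a stimulus, and P-selectin protein is also stored in granules with von Willebrand factor. Arterial endothelium over plaques is known for VCAM-1, and Vcam1 is also made by activated fibroblasts and smooth muscle cells.

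In the GENCODE vM21 annotation of GRCm38 (mm10), Sele lies on chromosome 1 (164048234-164057677) and Selp lies on chromosome 1 (164115264-164150026), both on the plus strand. Ackr1 lies on chromosome 1 (173331886-173333750) on the minus strand and overlaps Cadm3 on the same strand, so its counts are uncertain. Vcam1 lies on chromosome 3 (116109949-116129688) on the minus strand, Icam1 lies on chromosome 9 (21015985-21028817) on the plus strand and Icam2 lies on chromosome 11 (106377656-106388075) on the minus strand. Vcam1, Icam1 and Selp each overlap a non-coding gene on the opposite strand (Gm43109 for Vcam1, Gm47079 for Icam1, Gm16587 and Gm16548 for Selp), and whether counting used strand was not given, so such reads cannot be told apart. RefSeq promoter windows (GRCm38.p6) were matched for 4 of the 6 members, namely Sele, Selp, Icam1 and Ackr1, while Vcam1 and Icam2 are named only. The 160 bases before the RefSeq start are printed for Sele, Selp and Icam1. They were chosen because their levels were higher in the same nuclei that were rich in Vcam1. All are on the plus strand, and capitals mark the motif matches. Sele is at chr1:164048074-164048233, Selp at chr1:164115104-164115263 and Icam1 at chr9:21015780-21015939. The RefSeq start, from which motif distances are counted, is 21015940 for Icam1 and 173333503 for Ackr1. Both differ from the GENCODE positions above, whereas those of Sele and Selp are the same.
Sele: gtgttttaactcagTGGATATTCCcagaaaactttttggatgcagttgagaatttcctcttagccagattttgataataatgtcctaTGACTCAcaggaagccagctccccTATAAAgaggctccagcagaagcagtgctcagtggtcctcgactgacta
Selp: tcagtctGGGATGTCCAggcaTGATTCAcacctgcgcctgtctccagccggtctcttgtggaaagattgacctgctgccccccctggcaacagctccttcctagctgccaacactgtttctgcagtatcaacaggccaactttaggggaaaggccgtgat
Icam1: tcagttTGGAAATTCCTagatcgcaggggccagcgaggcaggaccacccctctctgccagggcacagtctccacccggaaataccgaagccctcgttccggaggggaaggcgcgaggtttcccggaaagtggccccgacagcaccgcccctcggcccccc
The motifs searched on both strands of the 250 bases before each start were the NF-kappaB consensus, the same consensus with its first base left free, TATAAA, the AP-1 site TGANTCA and the GATA site GATAAG. The full NF-kappaB consensus was in none of the 4 windows and in 7.25% of all 32851 promoter windows of that length. The relaxed form was in all 4 and in 22.9% of all windows. In Sele it began 146 bases before the start, ahead of TGACTCA at 73 and TATAAA at 49 bases before it. In Selp it was on the opposite strand, 153 bases before the start, with TGATTCA at 139 bases. In Icam1 it began 154 bases before the start and was matched on both strands, with the 2 matches overlapping. In Ackr1 it began 132 bases before the start, again on both strands with overlap. TGANTCA was in 6.75%, TATAAA in 12.4% and GATAAG in 6.55% of all windows, and GATAAG was in none of the 4. These matches describe letters and were not tested as binding sites.

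After filters and removal of likely doublets, 17845 nuclei in MTZ-simultaneous, 25996 nuclei in MTZ-after, 35104 nuclei in high-fat and 20773 nuclei in untreated remained, with medians of 1427 UMIs in MTZ-simultaneous, 826 UMIs in MTZ-after, 953 UMIs in high-fat and 2033 UMIs in untreated, so the libraries differed in depth. Pairs of libraries shared 119 to 376 cell barcodes, which is 0.531 to 1.34% of a library. Car1, the mouse gene for the knocked-in enzyme, was at 151 counts per 1000000 (CPM) in MTZ-simultaneous, 63.4 in MTZ-after, 86.1 in high-fat and 128 in untreated over all kept nuclei. Of 24 clusters 21 were named from marker genes, and 3 were endothelial-like: cluster 8 (led by Adarb2, Gm6213 and Meox2, with 10 of 14 endothelial markers enriched), cluster 14 (Frmd5, Sox4 and Kif26b, 8 of 14) and cluster 16 (Lrrc3b, Enpp6 and Car8, 9 of 14). Clusters 14 and 16 each had 5 of 7 arterial markers enriched, and cluster 8 had none of these but 2 of 5 capillary and 2 of 4 venous markers. The endothelial-like class held 2883 nuclei in MTZ-simultaneous, 4265 nuclei in MTZ-after, 6627 nuclei in high-fat and 3295 nuclei in untreated. Of these, cluster 14 held 890 in MTZ-simultaneous, 2135 in MTZ-after, 6264 in high-fat and 698 in untreated, so that most of the high-fat class was cluster 14, most of the MTZ-simultaneous and untreated class was cluster 16, and the MTZ-after class also held 1221 nuclei of cluster 8. A cluster drawn mostly from 1 library may reflect that library, so results are also given within clusters 14 and 16. The name of the high-fat nuclei depended on the clustering: at Leiden resolution 2 the class kept 1374 high-fat nuclei, and 5153 high-fat nuclei lay in a cluster that no marker list named, led by Edn1, Fbln5, Slit2, Frmd5 and Eln. The 14 endothelial markers summed in the class to 8356 CPM in MTZ-simultaneous, 7867 CPM in MTZ-after, 6363 CPM in high-fat and 9565 CPM in untreated, and none was at 0. The members took no part in clustering or naming. As for the tissue, smooth muscle-like nuclei numbered 2299 in MTZ-simultaneous, 3113 in MTZ-after, 1343 in high-fat and 658 in untreated. MTZ-after alone held many adrenal cortex-like (4203) and hepatocyte-like (954) nuclei, against at most 3 and 60 in another library, and brown adipocyte-like nuclei were 680 in MTZ-simultaneous, 875 in MTZ-after, 275 in high-fat and 7050 in untreated. In T- or NK-like nuclei, which should lack an endothelial programme, the same 14 summed to 3287 CPM in MTZ-simultaneous, 4288 CPM in MTZ-after, 3353 CPM in high-fat and 2684 CPM in untreated. That class is used beside Vcam1, Sele, Selp and Ackr1 as the level that free RNA and unremoved doublets can give. For Icam1 and Icam2, which lymphocytes make themselves, smooth muscle-like and brown adipocyte-like nuclei are used instead.

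The members were highest in endothelial-like nuclei, with exceptions in some libraries. Among the classes with at least 100 nuclei in a library, endothelial-like nuclei ranked first for Sele, Selp and Icam2 in 4 of 4 libraries. They ranked first for Vcam1, Icam1 and Ackr1 in 3 of 4. The exceptions were Vcam1 in high-fat, where fibroblast-like nuclei had 475 CPM against 419.6 CPM in endothelial-like nuclei, and 2 orders within counting error, Icam1 in MTZ-simultaneous (T- or NK-like first) and Ackr1 in MTZ-after (fibroblast-like first). Fibroblast-like nuclei were next for Vcam1 in the other libraries, at 329.8 CPM in MTZ-simultaneous, 420.1 CPM in MTZ-after and 408 CPM in untreated. For Selp the intervals of endothelial-like and next-ranked nuclei did not overlap in any library, and for Vcam1 those of endothelial-like and fibroblast-like nuclei did not. For Sele they overlapped in the 2 MTZ libraries. The endothelial-like class's share of all counts of a library was 19.1% in MTZ-simultaneous, 15.3% in MTZ-after, 17.8% in high-fat and 13.9% in untreated. Its share of the Sele counts was 44.6% in MTZ-simultaneous, 30.99% in MTZ-after, 36.7% in high-fat and 52.7% in untreated. Its share of the Vcam1 counts was 36.98% in MTZ-simultaneous, 25.1% in MTZ-after, 20.1% in high-fat and 39.1% in untreated, so most Vcam1 counts lay outside the class in every library.

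**Figure D1:**
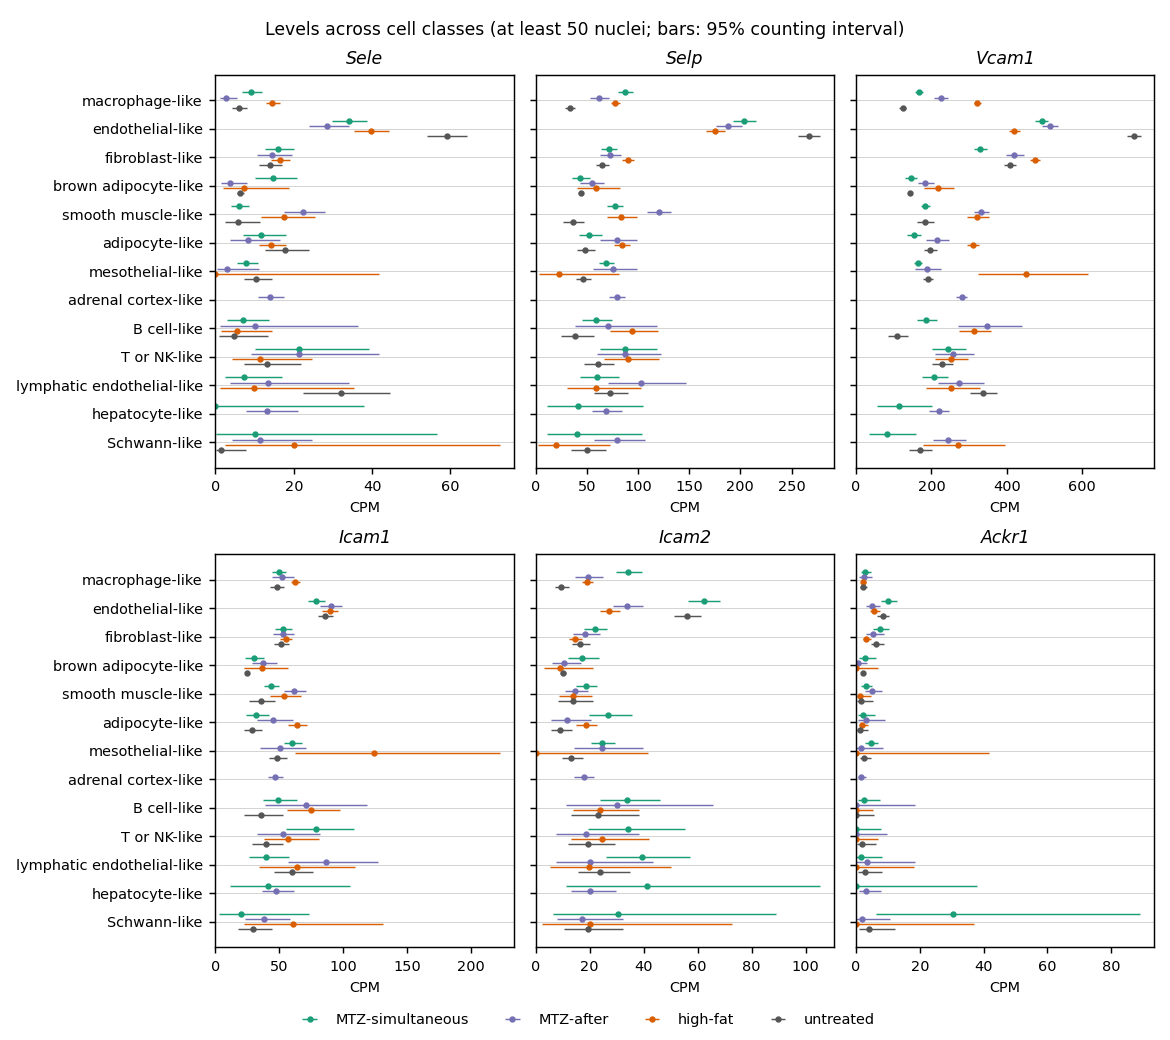
Level of each adhesion molecule (x axis, CPM) in each named cell class with at least 50 nuclei (y axis), 1 point per library with its 95% counting interval. Endothelial-like nuclei stand to the right for Selp in all 4 libraries, and Vcam1 reaches 737 CPM there in untreated.

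The selectins were highest in untreated endothelial-like nuclei. Sele was at 34.02 CPM (29.8 to 38.7) in MTZ-simultaneous, 28.6 CPM (23.9 to 34.01) in MTZ-after, 39.7 CPM (35.5 to 44.2) in high-fat and 59.02 CPM (54.1 to 64.3) in untreated. In T- or NK-like nuclei it was at 21.3 CPM in MTZ-simultaneous, 21.2 in MTZ-after, 11.3 in high-fat and 13.2 in untreated. The untreated interval stood above the other 3, and those of MTZ-after and high-fat did not overlap either, with MTZ-after the lowest. Selp was at 204 CPM (193 to 215) in MTZ-simultaneous, 188 CPM (176 to 202) in MTZ-after, 175 CPM (166 to 185) in high-fat and 267 CPM (256 to 278) in untreated, against 87.3 CPM in MTZ-simultaneous, 87.5 in MTZ-after, 90.5 in high-fat and 60.6 in untreated in T- or NK-like nuclei. Untreated was again highest for Selp, the intervals of MTZ-after and high-fat overlapped, and its endothelial-like level was above the T- or NK-like level in all 4 libraries. Within the class both selectins were highest in cluster 14: Sele there was at 46.7 CPM in MTZ-simultaneous, 43.4 in MTZ-after, 40.6 in high-fat and 111 in untreated, and Selp at 254 CPM in MTZ-simultaneous, 239 in MTZ-after, 175 in high-fat and 423 in untreated. In MTZ-simultaneous 1 nucleus of cluster 14 held 38 of the 120 Sele counts, and without it Sele was at 32.2 CPM there, within counting error of cluster 16. In high-fat that order did not hold for Selp, which was at 177 CPM in cluster 8, 175 CPM in cluster 14 and 176 CPM in cluster 16. In cluster 8, with its capillary and venous markers, Sele was at 2.33 CPM in MTZ-simultaneous, 9.76 in MTZ-after, 7.36 in high-fat and 9.84 in untreated, with UMI counts of 1 in MTZ-simultaneous, 12 in MTZ-after, 1 in high-fat and 16 in untreated. These values were below those of T- or NK-like nuclei, which rested on 10, 8, 6 and 15 counts in the same order. On so few counts none is read as a lower level, and all are read as background.

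Vcam1, the ligand for alpha-4 integrins, differed most between libraries in absolute level. It was at 492 CPM (475 to 509) in MTZ-simultaneous, 514 CPM (494 to 536) in MTZ-after, 419.6 CPM (406 to 434) in high-fat and 737 CPM (719 to 755) in untreated in endothelial-like nuclei. In T- or NK-like nuclei it was at 243 CPM in MTZ-simultaneous, 257 in MTZ-after, 251 in high-fat and 228 in untreated. Untreated was highest and high-fat lowest, each apart from the rest, and the intervals of the 2 MTZ libraries overlapped. The T- or NK-like intervals of all 4 libraries overlapped and lay below the endothelial-like ones. Icam1 was at 78.6 CPM (72.1 to 85.5) in MTZ-simultaneous, 90.1 CPM (81.5 to 99.3) in MTZ-after, 89.4 CPM (83.01 to 96.1) in high-fat and 85.8 CPM (79.9 to 92.1) in untreated. The intervals of all 4 libraries overlapped. In smooth muscle-like nuclei Icam1 was at 43.6 CPM in MTZ-simultaneous, 61.5 in MTZ-after, 53.9 in high-fat and 35.2 in untreated, and in brown adipocyte-like nuclei at 29.9 CPM in MTZ-simultaneous, 37.2 in MTZ-after, 36.7 in high-fat and 24.5 in untreated, below the endothelial-like interval in each library. T- or NK-like nuclei had 78.8 CPM in MTZ-simultaneous, within counting error of endothelial-like nuclei. Icam2, the ICAM of resting endothelium, was at 62.2 CPM (56.4 to 68.4) in MTZ-simultaneous, 33.7 CPM (28.6 to 39.6) in MTZ-after, 27.3 CPM (23.8 to 31.1) in high-fat and 56.02 CPM (51.2 to 61.1) in untreated. It was high in MTZ-simultaneous and untreated and low in MTZ-after and high-fat. The level in smooth muscle-like nuclei was 18.6 CPM in MTZ-simultaneous, 14.7 in MTZ-after, 13.6 in high-fat and 13.7 in untreated, and in brown adipocyte-like nuclei 17.1 CPM in MTZ-simultaneous, 10.5 in MTZ-after, 9.17 in high-fat and 10.1 in untreated, so the endothelial-like interval stood above both in each library. T- or NK-like nuclei had 34.1 CPM in MTZ-simultaneous, 18.6 in MTZ-after, 24.5 in high-fat and 19.3 in untreated, which in MTZ-after and high-fat was within counting error of endothelial-like nuclei. In cluster 8 of high-fat Icam2 had 0 counts in 83 nuclei, which allows up to 22.1 CPM, the level of 3 counts that is used as the limit for a count of 0.

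Ackr1 was sparse. It gave 69 counts in MTZ-simultaneous, 22 counts in MTZ-after, 47 counts in high-fat and 75 counts in untreated, or 10.1 CPM (7.87 to 12.8) in MTZ-simultaneous, 4.92 CPM (3.08 to 7.44) in MTZ-after, 5.75 CPM (4.23 to 7.65) in high-fat and 8.34 CPM (6.56 to 10.4) in untreated. In T- or NK-like nuclei it had 0 to 2 counts per library. Among the cluster levels that rest on more than 2 counts it was highest in cluster 14 of MTZ-simultaneous, at 17.1 CPM (12.5 to 23.004), against 5.90 CPM (4.30 to 7.89) in cluster 14 of high-fat. Ackr1 is known for venules, and cluster 8 with its venous markers gave 0, 6, 2 and 5 counts in MTZ-simultaneous, MTZ-after, high-fat and untreated.

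**Figure D2:**
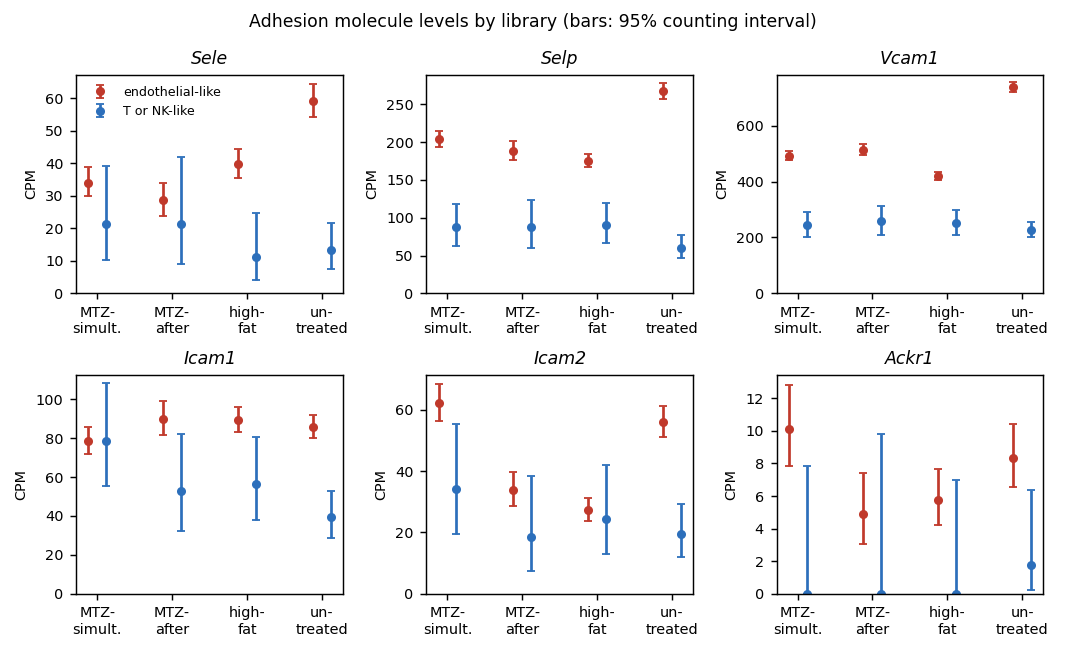
CPM of each adhesion molecule (y axis from 0) in endothelial-like nuclei (red) and T- or NK-like nuclei (blue) of the 4 libraries, with 95% counting intervals; lymphocytes make Icam1 and Icam2 themselves. Vcam1, Selp and Sele are highest in untreated endothelial-like nuclei, whereas Icam1 lies between 78.6 and 90.1 CPM.

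High-fat food against no treatment was the first comparison, which asks what the diet did in these mice. In endothelial-like nuclei 5 of the 6 members had a lower level in high-fat than in untreated. Of all genes measured in the class 39.5% had a ratio below 1. The high-fat over untreated CPM ratio was 0.672 (0.584 to 0.773) for Sele, 0.657 (0.615 to 0.702) for Selp, 0.569 (0.546 to 0.593) for Vcam1, 0.487 (0.414 to 0.572) for Icam2 and 0.69 (0.469 to 1.01) for Ackr1. For Icam1 it was 1.04 (0.94 to 1.15). The Sele ratio stayed below 1 in all 15 alternative settings, but rose to 0.987 with every nucleus thinned to the same depth. In untreated 33 of 3295 nuclei held 347 of the 531 Sele counts, and the interval does not cover such uneven spread. The Sele ratio is therefore not read as a lower level in most nuclei of the class. The Ackr1 ratio was above 1 at resolution 2 and with centred libraries, and the Icam1 ratio was below 1 in 7 of 15 alternative settings. A gene was called when its level differed at least 2-fold and the higher library held at least 50 counts. By that rule 1 member, Icam2, was lower and none higher, where over all genes measured in the class 2.35% were lower and 7.76% higher. The Icam2 call did not hold in 8 of 15 alternative settings, among them cluster 14 (0.562) and cluster 16 (0.545) taken alone. All 14 endothelial markers were also below 1 in this comparison, with a median log2 ratio of -0.53 beside -0.58 for the 6 members and 0.09 for all genes measured, and their part in the result was not tested. Within cluster 14 the selectins differed more: Sele was at 40.6 CPM in high-fat against 111 CPM in untreated (ratio 0.365, interval 0.311 to 0.429), and Selp at 175 against 423 CPM (ratio 0.415, interval 0.384 to 0.449). Both were called lower, in a cluster where 0.941% of genes were lower and 10.2% higher. The Vcam1 ratio was 0.568 (0.537 to 0.601) in cluster 14 and 0.755 (0.666 to 0.853) in cluster 16. Cluster 16 had only 280 high-fat nuclei. No member was called there, where 3.93% of genes were lower and 0.303% higher, and the Icam1 ratio was 1.57 (1.15 to 2.12), or 1.38 (0.976 to 1.90) without the nucleus with the most Icam1 UMIs in each library.

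In T- or NK-like nuclei the same comparison gave 251 against 228 CPM for Vcam1 and 90.5 against 60.6 CPM for Selp. The level intervals overlapped for both, and the ratio was 1.10 (0.887 to 1.36) for Vcam1 and 1.49 (1.01 to 2.19) for Selp, so the Selp level that serves as background was higher in high-fat. Over all kept nuclei, of every class, the direction was the other way for 5 members: the high-fat over untreated ratio was 1.41 (1.38 to 1.44) for Vcam1, 1.57 (1.49 to 1.66) for Icam1, 1.26 (1.21 to 1.31) for Selp, 1.23 (1.12 to 1.35) for Sele and 1.05 (0.965 to 1.15) for Icam2, which TMM scaling moved below 1. None of the 6 was called there, beside 6.47% of genes higher and 7.29% lower. Such whole-library levels also move with the share of each class. In macrophage-like nuclei Vcam1 was at 322 CPM in high-fat against 124 CPM in untreated, and Vcam1, Icam2, Sele and Selp were all called higher (2.60, 2.02, 2.45 and 2.34), where 9.20% of genes were higher and 2.05% lower. Sele at 14.6 and Selp at 77.95 CPM in high-fat macrophage-like nuclei were within counting error of high-fat T- or NK-like nuclei, and Icam2 at 19.1 CPM was within that of high-fat smooth muscle-like nuclei, so these levels are read as background. The Vcam1 level was above that of high-fat T- or NK-like nuclei, 251 CPM (210.0 to 297), but within counting error of smooth muscle-like (322 CPM), B cell-like (314 CPM) and adipocyte-like nuclei (310.2 CPM) of that library, so it is not read as a level particular to macrophage-like nuclei.

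**Figure D3:**
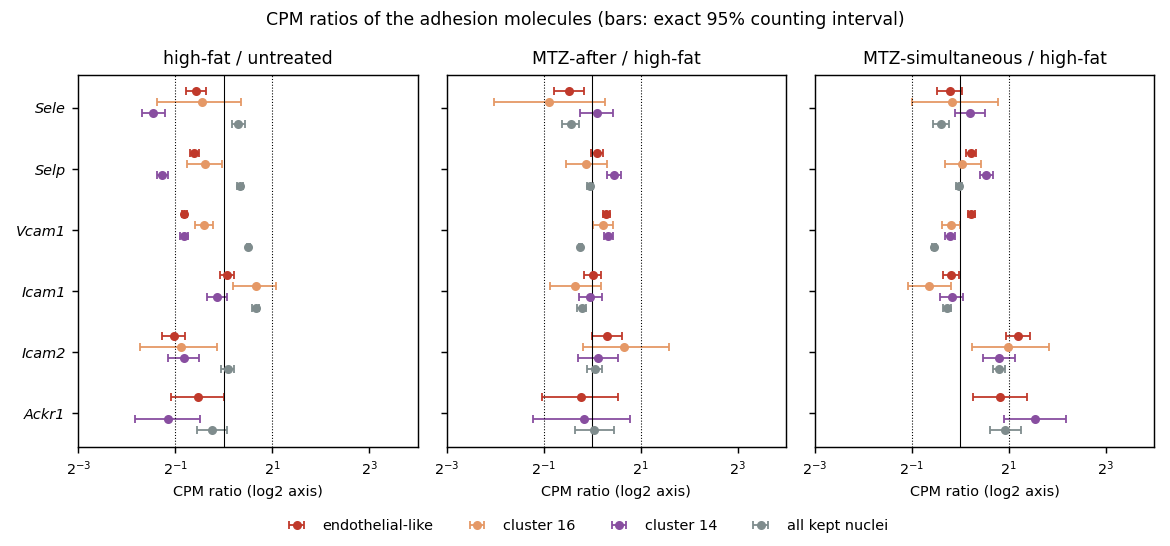
CPM ratio of each adhesion molecule (x axis, log2 scale) in 3 comparisons, for endothelial-like nuclei, their clusters 14 and 16, and all kept nuclei, with exact 95% counting intervals and dotted lines at 2-fold. For high-fat over untreated the endothelial-like points of all members but Icam1 lie left of 1, and Vcam1 over all kept nuclei is at 1.41; a ratio against 0 counts is not drawn.

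MTZ against high-fat food alone was the comparison of the drug. With MTZ given after disease was established, none of the 6 members was called in endothelial-like nuclei, where 4.29% of genes were higher and 1.50% lower. The MTZ-after over high-fat ratio was 0.721 (0.583 to 0.887) for Sele, 1.07 (0.985 to 1.17) for Selp, 1.23 (1.16 to 1.29) for Vcam1, 1.01 (0.89 to 1.14) for Icam1, 1.24 (0.998 to 1.53) for Icam2 and 0.854 (0.49 to 1.45) for Ackr1. The level of Vcam1 in MTZ-after thus stood between those of high-fat and untreated. The direction turned in some alternatives: below 1 for Vcam1 with a marker gate in place of clusters, below 1 for Selp with that gate, with thinning, as a mean over nuclei, at resolution 2 and in cluster 16, and above 1 for Sele with centred libraries (on 2 high-fat counts), in cluster 14 and in a finer cluster. Without the nucleus with the most Sele UMIs in each library the cluster 14 ratio was 0.958 (0.745 to 1.22), below 1. It also turned for Icam1 in 9 of 15 alternatives and for Ackr1 with a stricter doublet rule. In cluster 14 alone the ratio was 1.36 (1.23 to 1.51) for Selp, or 1.22 (1.09 to 1.35) without the top nucleus of each library, and 1.26 (1.18 to 1.35) for Vcam1, with no member called (1.73% of genes higher, 1.82% lower). With MTZ from the start of the diet, Icam2 was called higher, at 62.2 CPM against 27.3 CPM in high-fat (ratio 2.28, interval 1.93 to 2.69), where 2.24% of genes were higher and 3.83% lower. It lost the call, at 1.73 to 1.98, in 7 of 15 alternative settings, and it was above 1 in all 15. The other MTZ-simultaneous over high-fat ratios were 0.858 (0.721 to 1.02) for Sele, 1.16 (1.08 to 1.25) for Selp, 1.17 (1.12 to 1.23) for Vcam1, 0.879 (0.785 to 0.985) for Icam1 and 1.76 (1.20 to 2.60) for Ackr1. Within single clusters, and with the marker gate (0.88), the direction for Vcam1 was the other way: within cluster 14 Vcam1 was at 350.1 CPM in MTZ-simultaneous against 407 CPM in high-fat (ratio 0.86, interval 0.798 to 0.927), and within cluster 16 at 611 against 697 CPM (ratio 0.876, interval 0.773 to 0.995). The cluster 16 ratio was 0.922 (0.809 to 1.05) without the top nucleus of each library. Sele was above 1 with centred libraries (on 2 high-fat counts), in cluster 14 (1.15) and in the finer cluster (1.10). In the last 2 this rested on the nucleus with 38 Sele UMIs: without the top nucleus of each library the ratio was 0.814 (0.63 to 1.04) in cluster 14 and 0.819 (0.614 to 1.09) in the finer cluster, and in the whole class it was 0.737 (0.613 to 0.884). Icam1 was above 1 with thinning, and Ackr1 was below 1 with centred libraries. Within cluster 14 the ratio was 1.45 (1.32 to 1.59) for Selp and 2.91 (1.87 to 4.51) for Ackr1, which at 44 against 45 counts was under the count that a call needs, so no member was called (0.575% of genes higher and 5.11% lower). Icam2 was also higher in the macrophage-like class as a whole, at 34.1 CPM (29.6 to 39.2) in MTZ-simultaneous against 19.1 CPM (17.1 to 21.2) in high-fat. All kept nuclei gave a ratio of 1.74 (1.59 to 1.90). The macrophage-like class differed in make-up: its cluster 4 held 1081 nuclei in MTZ-simultaneous and 56 in high-fat. Cluster 1 held 899 and 6823 nuclei and cluster 19 held 446 and 8541, in the same order. Within cluster 1 the ratio was below 1 for all 6 members, Icam2 among them. Icam2 within the other macrophage-like clusters is not given here. In smooth muscle-like nuclei the Icam2 ratio was 1.36 (0.841 to 2.30) and in brown adipocyte-like nuclei 1.86 (0.728 to 6.07), both intervals across 1. The part of these Icam2 differences in the endothelial-like value was not tested. Over all kept nuclei Vcam1 was at 254 CPM in MTZ-simultaneous and 314 CPM in MTZ-after, against 371 CPM in high-fat (ratios 0.686 and 0.847), so there it was lower with MTZ, whereas in the endothelial-like class it was higher. No member was called over all kept nuclei in either MTZ comparison (7.99% of genes higher and 2.41% lower in MTZ-simultaneous, 13.6% and 2.54% in MTZ-after).

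The mean level hides how the counts were spread over nuclei. At the nuclei's own depths, Vcam1 was detected, by at least 1 UMI, in endothelial-like nuclei at shares of 42.1% in MTZ-simultaneous, 30.1% in MTZ-after, 33.3% in high-fat and 44.2% in untreated. Among T- or NK-like nuclei it was 25.5% in MTZ-simultaneous, 17.8% in MTZ-after, 22.2% in high-fat and 22.1% in untreated. Median depths were 1614 UMIs in MTZ-simultaneous, 759 UMIs in MTZ-after, 922 UMIs in high-fat and 1868 UMIs in untreated in endothelial-like nuclei, and 1024 UMIs in MTZ-simultaneous, 782.5 UMIs in MTZ-after, 893 UMIs in high-fat and 1431.5 UMIs in untreated in T- or NK-like nuclei. With every nucleus thinned to 500 UMIs, which left out no nucleus, the Vcam1 share of endothelial-like nuclei was 17.7% in MTZ-simultaneous, 18.5% in MTZ-after, 18.05% in high-fat and 20.4% in untreated. That of T- or NK-like nuclei was 11.4% in MTZ-simultaneous, 9.84% in MTZ-after, 11.8% in high-fat and 8.90% in untreated. The thinned endothelial-like shares lay close together and above those of T- or NK-like nuclei. For Selp the thinned share of endothelial-like nuclei was 9.05% in MTZ-simultaneous, 7.13% in MTZ-after, 7.30% in high-fat and 7.80% in untreated. Among T- or NK-like nuclei it was 3.30% in MTZ-simultaneous, 3.46% in MTZ-after, 4.27% in high-fat and 2.49% in untreated. Sele was found in few thinned nuclei of either class: 1.56% in MTZ-simultaneous, 0.985% in MTZ-after, 1.80% in high-fat and 1.52% in untreated for endothelial-like nuclei, with no order read between the libraries. At this depth 30.7%, 28.3%, 29.03% and 31.1% of endothelial-like nuclei in MTZ-simultaneous, MTZ-after, high-fat and untreated held a UMI of at least 1 member, and 4.72%, 3.87%, 3.17% and 4.95% held at least 2 members.

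Nuclei with many Vcam1 transcripts, in contrast, differed widely between libraries. This description was chosen after the data were seen. Among endothelial-like nuclei with at least 2000 UMIs (1028 in MTZ-simultaneous, 324 in MTZ-after, 711 in high-fat and 1519 in untreated), the share expected to hold 5 or more Vcam1 UMIs when each nucleus is thinned to 2000 was 3.22% (2.22 to 4.48) in MTZ-simultaneous, 4.06% (2.15 to 6.76) in MTZ-after, 1.53% (0.775 to 2.75) in high-fat and 9.41% (7.99 to 10.995) in untreated. The share with at least 1 Vcam1 UMI in the same nuclei was 44.1% in MTZ-simultaneous, 51.9% in MTZ-after, 46.1% in high-fat and 46.8% in untreated. Detection was therefore similar in high-fat and untreated, whereas Vcam1-rich nuclei were several times more frequent in untreated. Background is part of this detection. At their own depths, 104 of 468 T- or NK-like nuclei in high-fat and 124 of 562 in untreated held a Vcam1 UMI. Similar detection is therefore not read as a similar share of nuclei that make Vcam1. The nuclei left out as too shallow numbered 1855 in MTZ-simultaneous, 3941 in MTZ-after, 5916 in high-fat and 1776 in untreated, so the deep nuclei are a smaller part of the class in MTZ-after and high-fat. The order was the same within cluster 14, where high-fat and MTZ-simultaneous lay close together, with 1.39% in MTZ-simultaneous, 3.75% in MTZ-after, 1.27% in high-fat and 8.24% in untreated. In cluster 16 the share was 4.71% in MTZ-simultaneous, 7.22% in MTZ-after and 12.6% in untreated, and high-fat had fewer than 50 such nuclei. T- or NK-like nuclei reached 2.97% (0.934 to 6.54) in untreated and 0% (0 to 5.52) in MTZ-simultaneous, on 175 and 65 nuclei, and had fewer than 50 in the other libraries. The 5 such T- or NK-like nuclei of untreated held a median of 6243 CPM of endothelial markers, against 1608 CPM in the rest of that class. For Selp the share with 5 or more UMIs was 0.338% in MTZ-simultaneous, 0.323% in MTZ-after, 0.269% in high-fat and 1.19% in untreated, again highest in untreated. For Sele it was at most 0.392%, in untreated.

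At the nuclei's own depths, the nucleus with the most Vcam1 held 91 UMIs in MTZ-simultaneous, 47 UMIs in MTZ-after, 25 UMIs in high-fat and 137 UMIs in untreated. The share of the class's Vcam1 counts that lay in nuclei with 5 or more of them was 47.2% in MTZ-simultaneous, 24.1% in MTZ-after, 13.04% in high-fat and 71.6% in untreated. For Sele the corresponding shares were 30.6% in MTZ-simultaneous, 19.5% in MTZ-after, 5.56% in high-fat and 65.3% in untreated. Vcam1 and Sele counts in untreated thus lay mostly in nuclei with 5 or more, and in high-fat they were spread over nuclei with fewer UMIs each. Depth differed between libraries and moves these last shares as well.

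**Figure D4:**
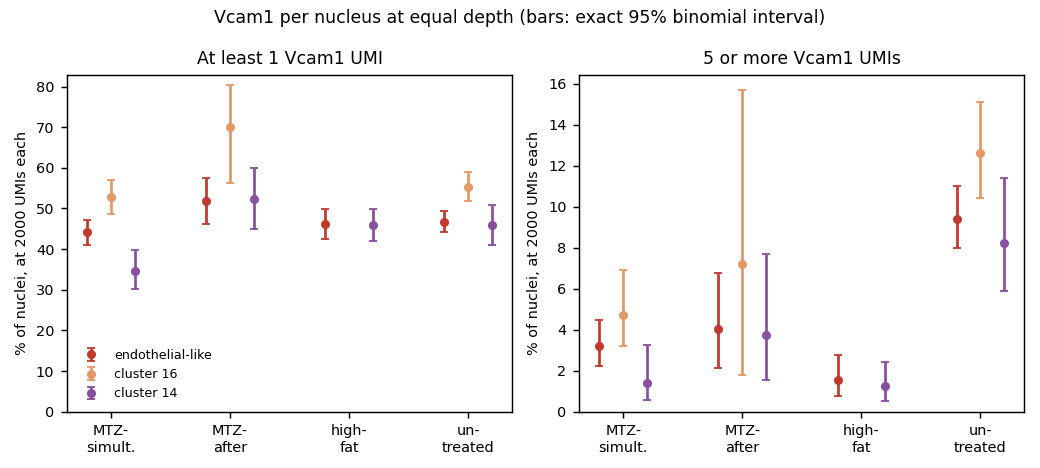
Percentage of nuclei with at least 1 (left) and with 5 or more (right) Vcam1 UMIs at 2000 UMIs each (y axes), in endothelial-like nuclei and their clusters 14 and 16 of each library, with exact 95% binomial intervals. The left shares of the class lie between 44.1 and 51.9%, while the right share is 1.53% in high-fat and 9.41% in untreated.

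Vcam1-rich endothelial-like nuclei, those with at least 5 Vcam1 UMIs per 2000 of their own UMIs, were also richer in Sele, Selp and Icam1 but not in Icam2 in MTZ-simultaneous and untreated, the libraries with the most such nuclei. The limit marks a range of values, not a type. They numbered 25 in MTZ-simultaneous, 8 in MTZ-after, 7 in high-fat and 117 in untreated. In untreated 47 nuclei lay just under the limit (4 to under 5) and 28 just above it (5 to under 6). In MTZ-simultaneous 14 were just under it and 8 just above. Sele was at 426 against 22.98 CPM in MTZ-simultaneous and 273 against 52.2 CPM in untreated, rich nuclei against the other nuclei with at least 2000 UMIs. Selp was at 644 against 205 CPM in MTZ-simultaneous and 664 against 279 CPM in untreated, and Icam1 at 419 against 64.3 CPM in MTZ-simultaneous and 269 against 76.9 CPM in untreated. Icam2 was at 54.3 against 63.1 CPM in MTZ-simultaneous and 49.99 against 54.7 CPM in untreated, within counting error of the rest. Single nuclei carried part of this: 1 rich nucleus of MTZ-simultaneous held 38 of the 55 Sele counts and 1 held 40 of the 83 Selp counts. Without the top nucleus for each gene the rich nuclei of MTZ-simultaneous had 163 CPM of Sele, 412 CPM of Selp and 357 CPM of Icam1, and those of untreated 216, 592 and 244 CPM, all with intervals above those of the other nuclei. In MTZ-after and high-fat the 8 and 7 rich nuclei gave few counts: Icam1 had 22 and 6, Sele 19 and 3, and Selp 77 and 7. In MTZ-after 1 nucleus held 68 of these Selp counts, and without it Selp was at 336 against 217 CPM, with overlapping intervals. Icam1 was at 552 against 77.8 CPM in MTZ-after and 334 against 95.2 CPM in high-fat, the high-fat value on 6 counts. The summed level of 12 NF-kappaB and cytokine receptor genes was 1993 against 882 CPM in MTZ-simultaneous, 1983 against 859 CPM in MTZ-after, 2286 against 888 CPM in high-fat and 1781 against 970.5 CPM in untreated, higher in rich nuclei in all 4 libraries. The summed chemokines of leukocyte arrest were at 759.8 against 204 CPM in MTZ-simultaneous, 954 against 239 CPM in MTZ-after, 669 against 241 CPM in high-fat and 377 against 199.7 CPM in untreated. Endothelial markers did not differ as much, with medians over nuclei of 8147 against 8352 CPM in MTZ-simultaneous and 9174 against 9448 CPM in untreated. Fibroblast markers had medians of 1116 against 583 CPM in MTZ-simultaneous and 288 against 337 CPM in untreated, and macrophage markers of 350.3 against 296 CPM in MTZ-simultaneous and 315 against 255 CPM in untreated. Their part in the result was not tested.

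**Figure D5:**
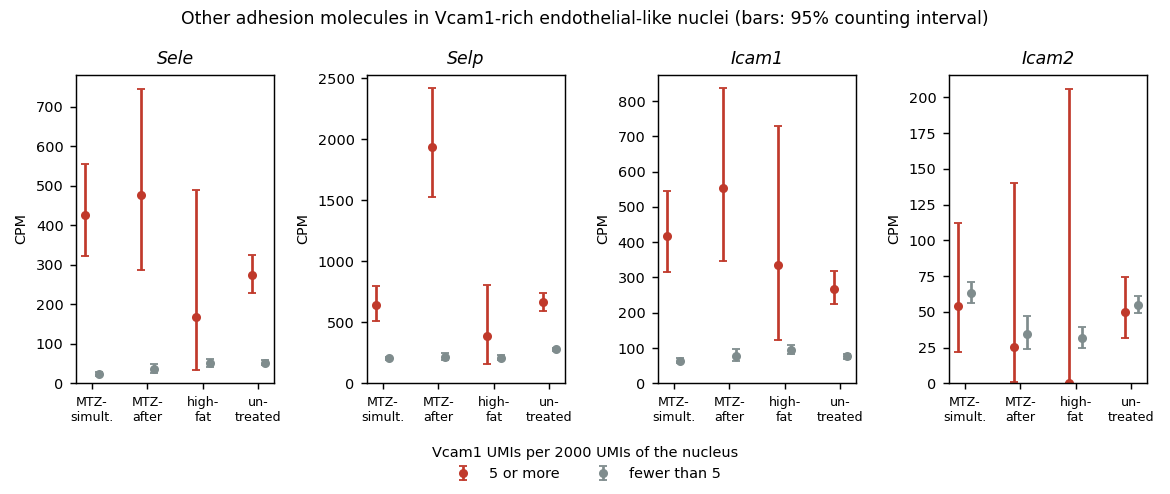
CPM of Sele, Selp, Icam1 and Icam2 (y axes from 0) in endothelial-like nuclei with at least 2000 UMIs, split by Vcam1 UMIs per 2000, in each library, with 95% counting intervals. Sele, Selp and Icam1 are higher in the Vcam1-rich nuclei of MTZ-simultaneous, MTZ-after and untreated, where Selp in MTZ-after rests on 1 nucleus with 68 UMIs, and Icam2 is not, at 49.99 against 54.7 CPM in untreated; high-fat has 7 such nuclei.

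Nuclei with and without a Sele UMI were compared as well. Endothelial-like nuclei with a Sele UMI numbered 122 in MTZ-simultaneous, 86 in MTZ-after, 256 in high-fat and 151 in untreated. Their Selp level over that of Sele-negative nuclei was 2.53 in MTZ-simultaneous, 3.38 in MTZ-after, 2.17 in high-fat and 3.30 in untreated. In MTZ-after it was 1.44 (1.04 to 1.95) without the nucleus with 68 Selp UMIs. For Vcam1 the ratio was 2.63 in MTZ-simultaneous, 2.89 in MTZ-after, 1.12 in high-fat and 2.41 in untreated, and for Icam1 2.82 in MTZ-simultaneous, 1.63 in MTZ-after, 1.22 in high-fat and 2.73 in untreated. For Icam2 it was 0.914 in MTZ-simultaneous, 0.748 in MTZ-after, 1.82 in high-fat and 1.29 in untreated, with 3 intervals across 1 and that of high-fat above it, at 1.11 to 2.83, which without its top nucleus was 0.994 to 2.64. The Vcam1 ratio in high-fat, 1.12 (0.968 to 1.28), was below the intervals of the other libraries, of which the nearest was 2.27 to 2.56 in untreated. Single nuclei of the class held up to 91 Vcam1 UMIs in MTZ-simultaneous, 47 in MTZ-after, 25 in high-fat and 137 in untreated. They were not left out of these Vcam1 ratios, and the intervals do not cover such uneven spread. Cluster 8, where Sele is read as background, was unevenly spread over the libraries. It held 215 of 2883 class nuclei in MTZ-simultaneous, 1221 of 4265 in MTZ-after, 83 of 6627 in high-fat and 753 of 3295 in untreated. The part of this make-up in the ratios was not tested. With nuclei of at least 2000 UMIs only, the Vcam1 ratios were 2.69 in MTZ-simultaneous, 2.22 in MTZ-after, 1.32 in high-fat and 2.41 in untreated. Sele-positive nuclei were deeper, with medians of 2194 against 1586 UMIs in MTZ-simultaneous, 1145.5 against 754 UMIs in MTZ-after, 1302 against 913 UMIs in high-fat and 3804 against 1831 UMIs in untreated. In untreated their fibroblast markers were 3.44-fold the level of Sele-negative nuclei and their endothelial markers 0.872-fold, and the part of this and of depth in the result was not tested. With every nucleus at 500 UMIs few nuclei held both genes, so the link could be read only imprecisely. In cluster 14 the nuclei with both Vcam1 and Sele numbered 3 against 2.33 in MTZ-simultaneous, 12 against 4.98 in MTZ-after, 17 against 20.2 in high-fat and 11 against 6.84 in untreated, observed against the product of the separate shares. In cluster 16 they numbered 10 against 5.72 in MTZ-simultaneous, 4 against 2.14 in MTZ-after, 1 against 0.986 in high-fat and 8 against 4.32 in untreated. The interval of the observed number stood above the product in cluster 14 of MTZ-after and held it in the other 7 cases. For Vcam1 with Icam1 it held the product in 7 of 8 cases, the exception being cluster 14 of untreated. For Vcam1 with Selp it stood above the product in cluster 16 of MTZ-simultaneous (52 against 30.8) and cluster 14 of untreated (33 against 21.8). For Sele with Selp it stood above the product in cluster 14 of MTZ-simultaneous (6 against 1.91). In the remaining cases of these pairs with Selp it held the product.

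Within the fibroblast-like class Vcam1 was highest in cluster 20, led by Cemip, Grin2a, Col1a1, Lum and Col6a3. Vcam1 there was at 626 CPM in MTZ-simultaneous, 996 in MTZ-after, 509 in high-fat and 1405 in untreated, on 374 nuclei in MTZ-simultaneous, 234 nuclei in MTZ-after, 3258 nuclei in high-fat and 182 nuclei in untreated. It was called lower in high-fat than in untreated, with a ratio of 0.362 (0.341 to 0.385), where 1.40% of genes were lower and 6.99% higher. A single untreated nucleus held 369 of the 1345 untreated counts. Without it the untreated level was 1060.4 CPM, and without the top nucleus of each library the ratio was 0.473 (0.442 to 0.508), an interval that reaches across the 2-fold limit. Most nuclei of the cluster were from high-fat, so it may reflect that library. Its fibroblast markers summed to 5414 CPM in MTZ-simultaneous, 6701 in MTZ-after, 3302 in high-fat and 6191 in untreated. Its endothelial markers summed to 2415 CPM in MTZ-simultaneous, 3155 in MTZ-after, 3154 in high-fat and 1929 in untreated. The part of these differences in the Vcam1 ratios was not tested. The MTZ-after over high-fat ratio was 1.96 (1.79 to 2.14) and the MTZ-simultaneous over high-fat ratio 1.23 (1.14 to 1.32), neither called (5.45% of genes lower and 0.436% higher in MTZ-after). In the whole fibroblast-like class the order differed, at 329.8 CPM in MTZ-simultaneous, 420.1 in MTZ-after, 475 in high-fat and 408 in untreated. The share of cluster 20 nuclei expected to hold 5 or more Vcam1 UMIs at 2000 UMIs was 5.89% in MTZ-simultaneous, 16.3% in MTZ-after, 3.50% in high-fat and 12.1% in untreated. As in the endothelial-like class, the share was lower in high-fat than in untreated. Selp in cluster 20, at 67.7 CPM in MTZ-simultaneous, 81.5 in MTZ-after, 90.2 in high-fat and 76.2 in untreated, was near the T- or NK-like level. Sele there was at 5.21 CPM in MTZ-simultaneous, 9.06 in MTZ-after, 16.7 in high-fat and 43.9 in untreated. In untreated 2 nuclei held 23 of the 42 Sele counts. Sele was called lower in MTZ-simultaneous than in high-fat (7 against 145 counts, ratio 0.313, interval 0.123 to 0.661), where 3.65% of genes were lower and 1.27% higher. The MTZ-simultaneous level was below that of T- or NK-like nuclei of its library (21.3 CPM) and the high-fat level within their interval (4.15 to 24.6 CPM), so both are read as background.

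The other genes of leukocyte recruitment were taken from lists of their roles. Genes of these lists named beyond the 3 most changed in each direction were chosen after their values were seen. In endothelial-like nuclei of high-fat against untreated, 8 of 10 measured leukocyte ligands and integrins were called higher and none lower, with a median log2 ratio of 1.70 beside 0.09 for all genes. Of all genes measured in the class 7.76% were called higher and 2.35% lower, which is the background for each list count in this comparison. These ligands included Itgax, an integrin chain of macrophages and dendritic cells, at 31.6 against 4.45 CPM (ratio 7.10), and Itga4, the alpha-4 partner of VCAM-1, at 70.8 against 15.005 CPM (ratio 4.72). The macrophage marker sum in the class moved with them, at 749 CPM in high-fat against 363 CPM in untreated with none of the 12 markers at 0. Spp1, a gene of plaque macrophages, was at 1747 against 256 CPM. In T- or NK-like nuclei, the background class, that sum was 1101 against 526 CPM and Spp1 was at 2272 against 425 CPM. The part of macrophage transcripts and of background in the result was not tested. Of 12 NF-kappaB and cytokine receptor genes none was called, and their median was -0.16. Of 8 genes that restrain endothelial activation 2 were lower and 1 higher: Klf2 and Klf4, flow-induced transcription factors, were at 286 against 876 CPM (ratio 0.326) and 119 against 387 CPM (ratio 0.306), and Hmox1, haem oxygenase 1, was the higher one at 16.9 against 5.89 CPM (ratio 2.87). Of 12 junction genes 2 were lower, namely Jam2, a junctional adhesion molecule, at 116 against 256 CPM (ratio 0.453) and Cldn5, a tight-junction protein, at 79.2 against 167 CPM (ratio 0.474). Of 6 other surface adhesion genes Alcam was higher, at 402 against 87.8 CPM (ratio 4.57), and of 6 chemokines 2 were higher, namely Cxcl16, a membrane-bound chemokine, at 44.6 against 19.9 CPM (ratio 2.24) and Ccl2, which attracts monocytes, at 10.2 against 4.78 CPM (ratio 2.13). Background levels of Hmox1, Alcam, Cxcl16 and Ccl2 are not given here. The part of macrophage transcripts and of background in these 4 was not tested either. Among the endothelial markers Kdr, a VEGF receptor, was lower at 27.2 against 63.1 CPM (ratio 0.431).

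In MTZ-after against high-fat, 1 of 10 leukocyte genes was higher and none lower, beside 4.29% of all genes higher and 1.50% lower: Itgal, the integrin chain that binds ICAM-1, was at 31.5 against 11.8 CPM (ratio 2.68). Thbd, an anticoagulant receptor gene, was higher at 69.5 against 28.9 CPM (ratio 2.41) and Jam2 at 239 against 116 CPM (ratio 2.06), while Hmox1 was lower at 7.82 against 16.9 CPM (ratio 0.463). Kdr was higher at 84.5 against 27.2 CPM (ratio 3.11). Of the 12 NF-kappaB, 6 chemokine and 6 other surface adhesion genes none was called. In MTZ-simultaneous against high-fat, 3 of 10 leukocyte genes were lower and none higher (median log2 ratio -0.54, beside 0.04 for all genes, of which 2.24% were higher and 3.83% lower), with Itgax at 12.02 against 31.6 CPM (ratio 0.381), Itga4 at 35.2 against 70.8 CPM (ratio 0.497) and Cd44, a hyaluronan receptor, at 86.8 against 183 CPM (ratio 0.475). Alcam was also lower, at 113 against 402 CPM (ratio 0.281), and Cldn5 was higher, at 181 against 79.2 CPM (ratio 2.29). The macrophage marker sum was 456 CPM in MTZ-simultaneous and 535 CPM in MTZ-after against 749 CPM in high-fat, and its part was not tested. In T- or NK-like nuclei that sum was 635 CPM in MTZ-simultaneous and 594 CPM in MTZ-after against 1101 CPM in high-fat. Since both MTZ comparisons and the diet comparison use the high-fat library, they are not independent.

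The genes whose levels were most like those of a member were found over 43 sums of a class in a library, by Pearson's r of log2(CPM + 1), given as a description because the sums share libraries and depth. For Selp they were Vwf (0.90), Gja5 (0.88) and Pecam1 (0.88), of which Vwf encodes von Willebrand factor. For Sele they were Grasp (0.75), Vcam1 (0.71) and Slco2a1 (0.68), so that the member Vcam1 was among the 3 closest of 15004 genes. For Vcam1 they were Osmr (0.84), Col5a2 (0.84) and Grasp (0.84), where Osmr is the oncostatin M receptor and Col5a2 a fibrillar collagen. For Icam2 they were Ltbp4 (0.82), Ramp2 (0.81) and Hid1 (0.79), for Icam1 Casp4 (0.86), Tmem173 (0.84) and Lmo2 (0.83) and for Ackr1 Zbed5 (0.72), Scml2 (0.70) and Nwd1 (0.69).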

How the data were processed

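The authors deposited 1 filtered matrix of whole-number UMI counts per library; the file headers name Cell Ranger 7.0.1, and the submitters' processing notes name STAR and mm10. The sources used here do not say whether introns were counted. All later steps were computed from these counts. Nuclei needed at least 300 genes and at most 10% mitochondrial counts. The automatic Scrublet threshold marked 0.0% of nuclei in every library, so the highest 8% of scores were removed, with ties kept, 1416 to 2912 nuclei per library. For clustering, each nucleus was scaled to 10000 counts and put on a log scale; 2000 variable genes without the members gave 30 principal components and Leiden clusters at resolution 1 (scanpy 1.11.5). A cluster could be named when at least 3 markers of a class were detected in 5% of its nuclei and enriched 2-fold. It stayed unnamed where an unrelated class had a similar share of its markers enriched or more markers among the leading genes. A shallow cluster with no marker of its class among the leading genes also stayed unnamed. An unnamed cluster can therefore hold enriched markers of a class.

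Counts were summed per class and library and scaled to CPM. Intervals are exact: Poisson ones for levels, Clopper-Pearson ones for shares and conditional binomial ones for ratios; the calling rule was checked on simulated counts. Total UMIs per library were 31517272 to 69201159. Alternatives changed the filter, the doublet rule, the clustering, the scaling (TMM, edgeR 4.0.16) and the minimum count. The members, lists and rules were chosen with earlier results of these data known. Named genes were the 6 members, list genes called in endothelial-like nuclei (at most 3 in each direction per comparison, by the interval bound nearest to 1), and for each member the 3 genes of most similar level. Spp1, Car1 and any list gene beyond these were chosen after their values were seen, as were the description by Vcam1 UMIs per nucleus and the settings added for it.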

Additional observations from a re-analysis of the deposited data

Results flagged for a closer look

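Icam2 went in opposite directions in endothelial-like nuclei and in 2 other classes of the diet comparison. In macrophage-like nuclei it was at 19.1 CPM in high-fat against 9.45 CPM in untreated (ratio 2.02, interval 1.53 to 2.71). In adipocyte-like nuclei it was at 18.7 against 8.87 CPM (ratio 2.11, interval 1.30 to 3.56). In endothelial-like nuclei it was at 27.3 against 56.02 CPM (ratio 0.487, interval 0.414 to 0.572). With 1 library per group the difference between the classes was not tested. The high-fat levels in macrophage-like and adipocyte-like nuclei were within the interval of smooth muscle-like nuclei, 8.45 to 20.9 CPM.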

How the results depend on the processing

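The high-fat over untreated ratio stayed below 1 in all 15 alternatives for Vcam1 (0.331 to 0.831), Icam2 (0.076 to 0.661), Sele (0.173 to 0.987) and Selp (0.412 to 0.862); Icam1 went either way. The Sele value nearest 1 came from thinning to 500 UMIs. TMM moved the median of all genes by -0.13 (log2) for high-fat against untreated in endothelial-like nuclei. The finer cluster, the subtraction, leaving out the nucleus with the most UMIs and the settings for 5 or more Vcam1 UMIs were chosen after the data were seen. The cause was not tested in the cases that follow, except where the setting itself gives it. The Icam2 call in high-fat against untreated was lost with at least 500 genes and at most 5% mitochondrial counts (0.529), without doublet removal (0.55), with another seed (0.529), at resolution 2 (0.534), with a marker gate (0.661), and within cluster 14 (0.562), cluster 16 (0.545) and a resolution 2 cluster (0.566). The Icam2 call in MTZ-simultaneous against high-fat was lost under the same settings except the seed (1.98, 1.96, 1.97, 1.98, 1.74, 1.97 and 1.73 in that order). Subtracting the T- or NK-like level took high-fat over untreated to 0.331 for Vcam1 and 0.412 for Selp, MTZ-after over high-fat to 0.26 for Sele and 5.44 for Icam2, which lymphocytes make themselves, and MTZ-simultaneous over high-fat to 0.449 for Sele. Centring the libraries left 169 high-fat endothelial-like nuclei. High-fat over untreated was then 0.363 for Vcam1, 0.432 for Selp and, on 2 high-fat counts, 0.173 (0.0209 to 0.629) for Sele. MTZ-after over high-fat was then 2.36 (0.795 to 11.6) for Icam2, on 3 high-fat counts. Sele turned to 2.69 (0.73 to 22.5) in MTZ-after and 3.53 (0.966 to 29.4) in MTZ-simultaneous over high-fat. Both Sele values rested on 2 high-fat counts with intervals across 1, so no reversal is read from them. Cluster 14 alone gave 0.365 for Sele and 0.415 for Selp, and the finer cluster 0.4000 for Sele and 0.482 for Selp, in high-fat over untreated. Ackr1 in MTZ-simultaneous over high-fat was called as a mean over nuclei (2.18).

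The number of genes called in endothelial-like nuclei was 1167, 653 and 696 in high-fat against untreated, MTZ-after against high-fat and MTZ-simultaneous against high-fat; it became 7041, 6809 and 6334 with no minimum count and 1836, 1301 and 1219 with a minimum of 20, by construction. The unthinned Vcam1 share moved, with the stricter filter, to 43.96% in MTZ-simultaneous, 33.7% in MTZ-after, 35.4% in high-fat and 46.3% in untreated, without doublet removal 44.9% in MTZ-simultaneous and 36.9% in high-fat, with another seed 37.01% in high-fat, at resolution 2 48.3% in MTZ-simultaneous, 31.6% in MTZ-after, 47.8% in high-fat and 46.2% in untreated, and with centred libraries 26.9% in MTZ-after and 22.5% in high-fat. The Selp share moved, with the stricter filter, to 28.97% in MTZ-simultaneous, 15.4% in MTZ-after, 18.6% in high-fat and 30.4% in untreated, without doublet removal 30.9% in MTZ-simultaneous, 15.1% in MTZ-after and 19.6% in high-fat, with 16% removed 28.5% in MTZ-simultaneous, with another seed 28.1% in MTZ-simultaneous and 19.9% in high-fat, at resolution 2 33.8% in MTZ-simultaneous, 15.03% in MTZ-after, 31.6% in high-fat and 29.7% in untreated, and with centred libraries 29.8% in MTZ-simultaneous, 11.6% in MTZ-after and 10.7% in high-fat. The share with 5 or more Vcam1 UMIs became, with 3 or more UMIs, 9.08% in MTZ-simultaneous, 13.7% in MTZ-after, 7.51% in high-fat and 17.6% in untreated, with 10 or more 0.851% in MTZ-simultaneous, 0.816% in MTZ-after, 0.173% in high-fat and 2.81% in untreated, and at 1000 UMIs 1.02% in MTZ-simultaneous, 1.09% in MTZ-after, 0.337% in high-fat and 3.44% in untreated, highest in untreated and lowest in high-fat under each. With the stricter filter it was 2.21% in MTZ-simultaneous. Within cluster 14 it was 1.39% in MTZ-simultaneous, and within cluster 16 4.71%, 7.22% and 12.6% in MTZ-simultaneous, MTZ-after and untreated. No paired analysis was possible because each group had 1 library. Depth limits Ackr1 and clusters 8 and 16 of high-fat, which held 83 and 280 nuclei, and the endothelial marker gate took in many nuclei of other classes (30.05% of gated high-fat nuclei were endothelial-like).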
